A study of Mus musculus with 12 samples.

Results

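The glucocorticoid receptor and 8 genes that act on its hormone or are known to respond to it were examined in mice. The tissue was abdominal fat, from a strain in which obesity and diabetes occur. The members were the genes Nr3c1, Hsd11b1, Fkbp5, Sgk1, Zbtb16, Klf9, Mt1, Mt2 and Errfi1, taken by symbol from the array's probe sets. All 9 were measured, each by 1 probe set, among 23185 probe sets paired with 1 gene symbol. The mice were of strain BKS.Cg-Dock7m +/+ Leprdb/J, in which the db mutation of the leptin receptor gene Lepr gives obesity and diabetes. All were 12 weeks old when adenoviruses coding for short hairpin RNAs (shRNAs) were injected, and fat was frozen 1 week later. The TSC22D4 group received 2e9 plaque-forming units of a virus against Tsc22d4 with 2e9 of a control shRNA virus. The LCN13 group received 2e9 of a virus against Lcn13 with 2e9 of the control virus. Both gene-directed viruses, at 2e9 each and without control virus, went to the combined group, while the control group had 4e9 of control virus alone. In comparisons with the control group, gaining a gene-directed virus and losing control virus therefore cannot be told apart. The same holds for combined mice against TSC22D4 or LCN13 mice, and for all mice with a gene-directed virus against all without it. Only the TSC22D4 and LCN13 groups had the same amount of control virus. The labels give the controls the genotype WT, although every animal is listed under that one strain. They state neither the zygosity of the db mutation nor which tissue the virus reached. Each group had 7 animals, of which 3 described as representative were put on 1 array each, so the animals measured were a selection.

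Glucocorticoids, chiefly corticosterone in mice, pass into the cell and bind the receptor, which is held by heat shock proteins and the immunophilin Fkbp5. The bound receptor moves to the nucleus and binds DNA elements made of a pair of inverted sites, where it raises or lowers transcription. In fat, glucocorticoids promote adipocyte differentiation and affect lipolysis and insulin sensitivity, and the enzyme encoded by Hsd11b1 regenerates active hormone inside the cell.

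Promoter sequences are shown for 3 members, to set the receptor's element and the metal-responsive motif of metallothioneins beside a promoter with neither. They come from RefSeq, build GRCm38.p6. Windows of 250 bases before each annotated start were listed for 7 of the 9 members, and Nr3c1 and Zbtb16 are named here without one. The full receptor element was searched on both strands as AGAACA, any 3 bases, then TGTTCT, and the single site as AGAACA. The core of the metal response element was searched as TGCACNC or TGCGCNC. One of the 6 Sgk1 windows, chr10:21993640-21993889 on the plus strand, held a full element at bases -189 to -175 from that start. It lies inside the annotated gene, which begins at 21882184. The window before that outermost start, chr10:21881934-21882183, held 1 single site and no full element. The 30 bases at chr10:21993694-21993723 are printed with the inverted sites in capitals.
Sgk1: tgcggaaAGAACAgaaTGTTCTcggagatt
The Mt2 window, chr8:94172368-94172617 on the plus strand, held 3 metal cores, printed in capitals.
Mt2: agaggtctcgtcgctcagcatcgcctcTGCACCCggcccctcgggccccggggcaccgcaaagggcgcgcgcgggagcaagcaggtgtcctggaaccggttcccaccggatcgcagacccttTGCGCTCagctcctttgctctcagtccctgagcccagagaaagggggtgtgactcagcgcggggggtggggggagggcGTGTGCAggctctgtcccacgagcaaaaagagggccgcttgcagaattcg
The Klf9 window, chr19:23140976-23141225 on the plus strand, held none of these motifs.
Klf9: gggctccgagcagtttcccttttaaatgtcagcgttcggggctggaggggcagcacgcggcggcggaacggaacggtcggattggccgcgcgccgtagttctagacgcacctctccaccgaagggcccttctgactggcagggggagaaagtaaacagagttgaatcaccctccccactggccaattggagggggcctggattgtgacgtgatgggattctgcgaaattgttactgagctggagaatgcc
The full element occurred in 3 of the 32851 windows of this length in the reference table (0.009%), and a single site, which every full element contains, in 16.1%. A metal core occurred in 21.4%. The windows of Mt1 and Hsd11b1 each held 1 metal core, and those of Fkbp5 and Errfi1 held no motif searched. The Mt1 window, chr8:94178839-94179088, lies mostly inside the annotated gene, which begins at 94178883, and the Hsd11b1 window wholly inside its gene. The bases before the outermost start of these genes were therefore not fully searched. Matches are letters in these windows, and no binding was measured.

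Values are log2 and were brought by the authors to 1 common distribution over the arrays. They ran from 5.62 to 14.4, with a median of 6.31, and set the level of 1 probe set over samples, so levels of different genes are not compared here. The tissue label was checked with adipocyte genes: 7 of 8 listed markers were measured, and their values lay between 12.2 and 14.1 on every array, all above the 75th percentile of all values (8.47). Of 7 adrenal cortex markers, 6 stayed at or below 6.19, and the seventh, the corticotropin receptor Mc2r, which mouse adipocytes also make, had 9.81 to 10.5. Of the transcripts aimed at, Tsc22d4 had 7.56 to 7.88 and Lcn13, listed as Obp2a, 5.71 to 5.79, below the median of all values, and neither was called different in any comparison with control. In a bulk sample, fewer cells of a type and less RNA per cell cannot be told apart.

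No member passed the test in any comparison. Tests were limma fits over all 12 arrays, two-sided, with Benjamini-Hochberg adjustment over the 23185 genes and a threshold of 0.05, which 1.17% of all genes passed for TSC22D4 against control, 1.44% for LCN13 against control and 1.34% for the combined group against control. Members with an unadjusted p under 0.05 numbered 1, 0 and 1 of 9, against 11.8%, 12.6% and 11% of all genes in the 3 comparisons. The groups did not overlap for 0, 3 and 2 of the 9 members, where 16.6%, 15.7% and 14.9% of all genes did not overlap. The median log2 difference of the members from control was -0.02, 0.03 and -0.04, in the same order, with all genes at 0.00 in each. These 3 comparisons share the control animals.

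**Figure D1:**
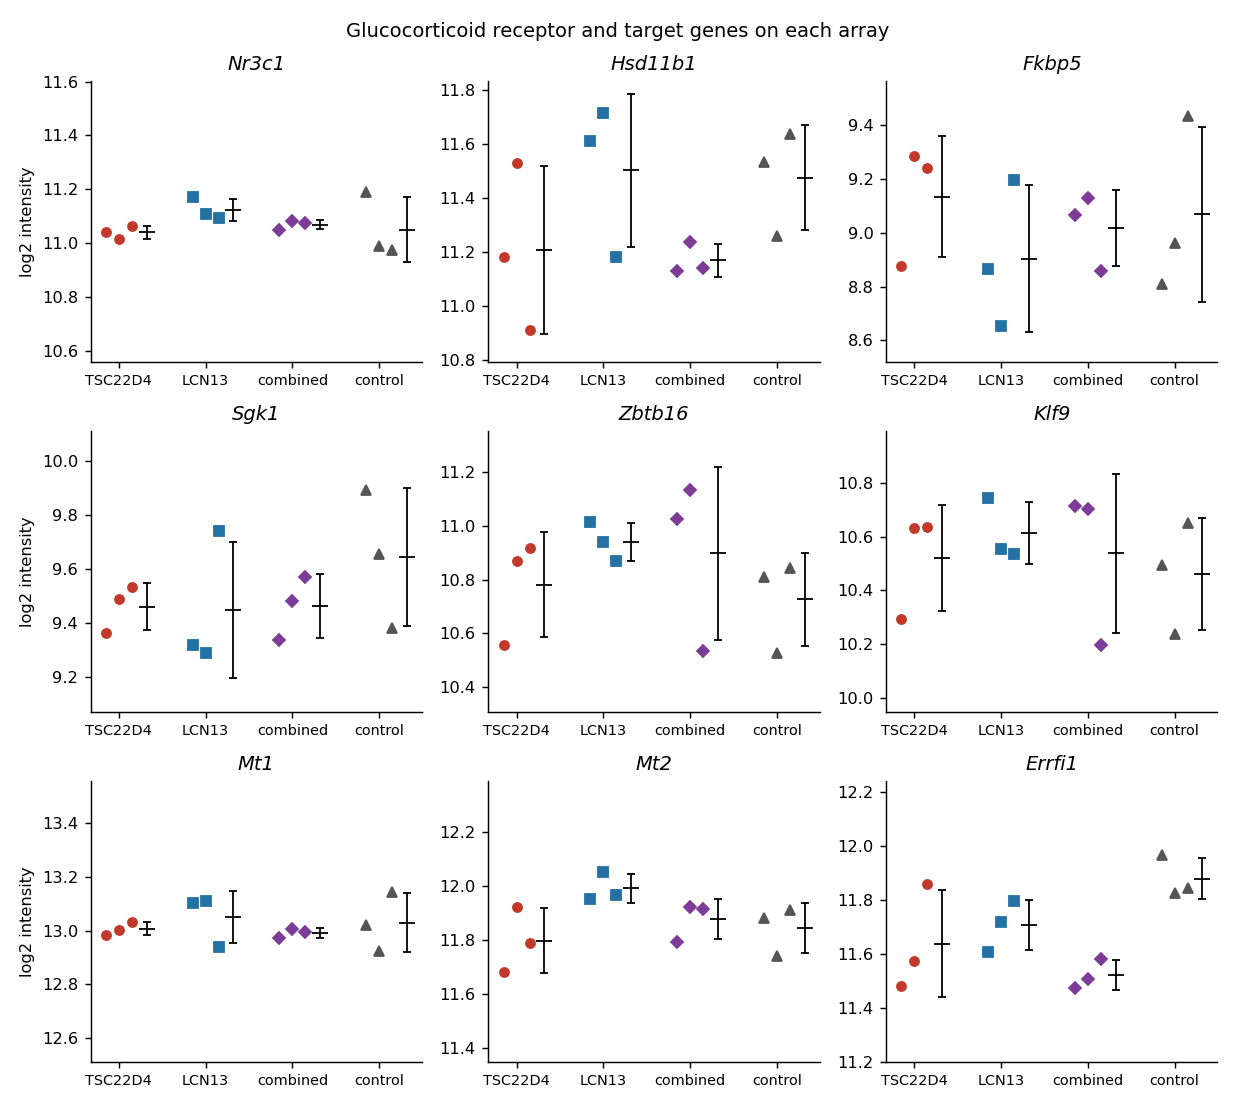
Log2 values of the 9 members on each of the 12 arrays (y axis, log2 units), by group on the x axis, with points for animals and a black mark for the group mean with its SD. The y axes start at different values and cover the same span. The combined points of Errfi1 lie between 11.47 and 11.58, below all control points, while the Mt1 and Nr3c1 points of all groups lie within 0.22 and 0.21 of each other.

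The receptor itself was among the steadiest members. Nr3c1 had 11.04, 11.02 and 11.06 in TSC22D4 mice, 11.17, 11.11 and 11.09 in LCN13 mice and 11.05, 11.08 and 11.07 in combined mice, against 11.19, 10.99 and 10.97 in controls. The values of all 9 shRNA mice lay within the range of the controls, which held both the highest and the lowest of the 12 arrays. The differences from control were -0.01 (TSC22D4), 0.07 (LCN13) and 0.02 (combined), and the 95% intervals of these 3 differences together ran from 0.918-fold to 1.14-fold. The SD over the 12 arrays was larger than that of 7.41% of the probe sets brighter than the median value. Without control replicate 1 the LCN13 difference was 0.14 and passed the test (adjusted p = 0.0384). The mice given the TSC22D4 virus alone and the combined mice each lay below all LCN13 mice, by 0.08 (adjusted p = 0.424) and 0.06 (adjusted p = 0.742).

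Hsd11b1, whose enzyme reduces 11-dehydrocorticosterone to corticosterone, had the widest range of the members. It had 11.18, 11.53 and 10.91 in TSC22D4 mice, 11.61, 11.72 and 11.18 in LCN13 mice and 11.13, 11.24 and 11.14 in combined mice, against 11.53, 11.26 and 11.64 in controls. The combined group lay just below the controls, and the other groups overlapped them. The difference from control was -0.31 in the combined group (SE 0.18, adjusted p = 0.627), -0.27 with TSC22D4 shRNA (adjusted p = 0.642) and 0.03 with LCN13 shRNA. Over the 6 mice that received the TSC22D4 virus against the 6 that did not, it was -0.30 (SE 0.13), with an unadjusted p of 0.0384, an adjusted p of 0.281 and an exact two-sided permutation p of 0.0238. In that comparison 0 of 9 members and 1.39% of all genes were called, 2 members and 16.1% of all genes had an unadjusted p under 0.05, and 0 members and 1.13% of all genes did not overlap. Markers of other cell types varied on the same arrays. The mean of 8 mesothelial markers, taken relative to each gene's mean over the arrays, was 0.69 and 0.71 in LCN13 replicates 5 and 6. It lay between -0.42 and 0.14 on the other 10. The mean of 7 liver markers was 0.41 and 0.43 in LCN13 replicates 5 and 6. It was 0.41 also in combined replicate 13, whose Hsd11b1 value of 11.13 was among the lowest, and -0.35 to 0.14 on the other 9. Hsd11b1 was 11.61 and 11.72 in LCN13 replicates 5 and 6. Control replicate 3 lay between them at 11.64, with a mesothelial mean of -0.22 and a liver mean of 0.14. The mean of 3 red blood cell markers was -1.27 and -1.19 in LCN13 replicates 5 and 6, and 0.93 to 1.28 in the combined mice. The part of these cells in the Hsd11b1 values was not tested.

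Fkbp5, a receptor target whose protein lowers the receptor's affinity for hormone in a feedback loop, differed as much within groups as between them. It had 8.88, 9.28 and 9.24 in TSC22D4 mice, 8.86, 8.65 and 9.20 in LCN13 mice and 9.07, 9.13 and 8.86 in combined mice, against 8.81, 8.96 and 9.43 in controls. All groups overlapped, and the highest single value was a control. Differences from control were 0.07, -0.16 and -0.05 for TSC22D4, LCN13 and combined. Group membership accounted for 14.5% of its variance over the arrays, and the 95% intervals allow changes from 0.665-fold to 1.41-fold.

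Sgk1 encodes a kinase that raises sodium transport and is among the early genes induced by glucocorticoids. It had 9.36, 9.49 and 9.53 in TSC22D4 mice, 9.32, 9.29 and 9.74 in LCN13 mice and 9.34, 9.48 and 9.57 in combined mice, against 9.90, 9.66 and 9.38 in controls. Controls held 2 of the 3 highest values, yet the other control lay among the shRNA mice, so no group stood apart. The difference from control was -0.18, -0.20 and -0.18 for TSC22D4, LCN13 and combined, each with an SE of 0.15 and adjusted p from 0.661 to 0.794.

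Zbtb16 and Klf9 encode transcription factors induced by glucocorticoids: Zbtb16 is a zinc finger repressor with a role in adipocyte differentiation, and Klf9 a Krüppel-like factor. Zbtb16 had 10.56, 10.87 and 10.92 in TSC22D4 mice, 11.01, 10.94 and 10.87 in LCN13 mice and 11.03, 11.13 and 10.53 in combined mice, against 10.81, 10.53 and 10.84 in controls. Klf9 had 10.29, 10.63 and 10.63 in TSC22D4 mice, 10.74, 10.55 and 10.54 in LCN13 mice and 10.71, 10.70 and 10.20 in combined mice, against 10.49, 10.24 and 10.65 in controls. The same 3 arrays, TSC22D4 replicate 10, combined replicate 16 and control replicate 2, were lowest for both genes and came from 3 different groups. Those 3 had Zbtb16 values of 10.53 to 10.56 and Klf9 values of 10.20 to 10.29, against lows of 10.81 and 10.49 on the other 9. The LCN13 mice lay above all controls for Zbtb16, with a difference of 0.21 (SE 0.16, adjusted p = 0.654), and overlapped them for Klf9 at 0.15 (adjusted p = 0.786). Without the 3 low arrays, the Zbtb16 difference of the combined group from control was 0.25 in place of 0.17, and the LCN13 difference 0.11. These values carry no test, since the arrays were left out for their Zbtb16 values.

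The animals that were low in Zbtb16 were low in Klf9 whatever their group. Of the 36 pairs of members, this was the 1 pair whose Pearson correlation over the 12 arrays passed a permutation test with adjustment over all pairs (adjusted p = 0.0018 from 100000 permutations), and Spearman's passed as well (adjusted p = 0.0281). Since 3 arrays stand apart, the strength is given for the other 9, where Pearson's r was 0.717 (exact permutation p = 0.0305 over 362880 pairings, two-sided) and Spearman's rho 0.683 (exact permutation p = 0.0503). That subset was chosen by its Zbtb16 values after they were seen, and no adjustment was made for the single pair. These p-values therefore only describe the 9 arrays. When values were taken as deviations from group means and permuted within groups, the pair did not pass over the 36 pairs (adjusted p = 0.139, from an exact p of 0.00386). Permutations within groups cannot give less than 0.000772. Of the 36 pairs, 25 had r above 0, the median r was 0.19, and 5 had an unadjusted p under 0.05.

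**Figure D2:**
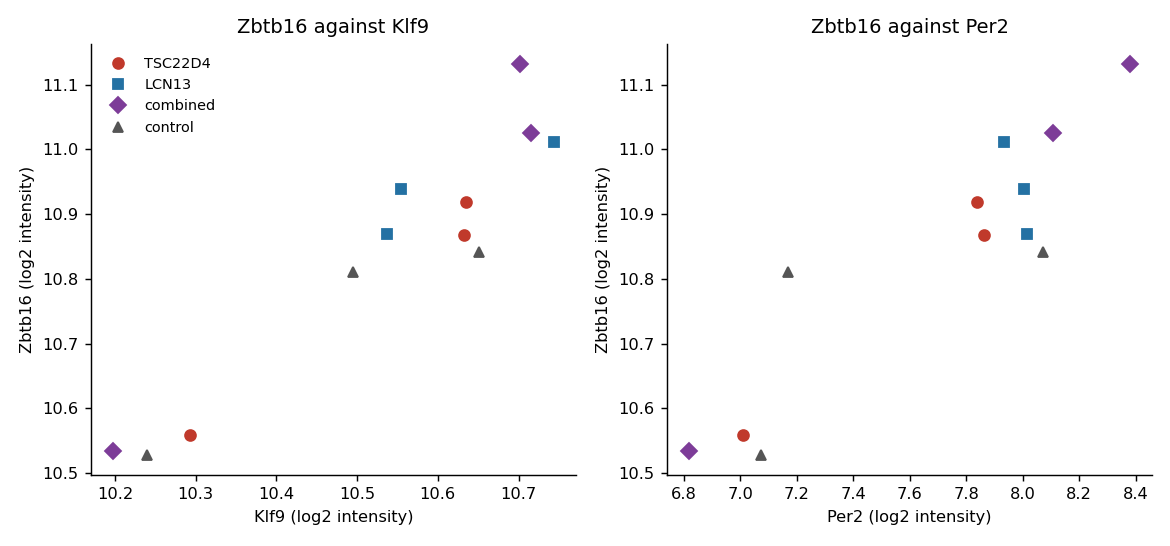
Zbtb16 (y axis, log2) against Klf9 (x axis of the left panel, log2) and Per2 (x axis of the right panel, log2), with 1 point per array, coloured by group. The TSC22D4, combined and control groups each have 1 array in the lower left of both panels, with Zbtb16 at or below 10.56 and Klf9 at or below 10.29.

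Of 24 other glucocorticoid-induced genes, 3 (Per1, Per2 and Fam107a) had all 3 of these arrays below the other 9, and 0 had all 3 above. One of the 3 arrays was the lowest of the 12 for 10 of the 24 genes and the highest for 5, Dusp1, Angptl4, Lcn2, Glul and Anxa1. These counts carry no test, since the arrays were picked for their Zbtb16 values. The share over all genes was not counted, so nothing is read from them about these 24 genes as a set. Per2, a repressor of the circadian clock that the receptor also induces, had 7.01, 7.86 and 7.84 in TSC22D4 mice, 7.93, 8.01 and 8.02 in LCN13 mice and 8.11, 8.38 and 6.82 in combined mice, against 7.17, 7.07 and 8.07 in controls. The 3 arrays low in Zbtb16 and Klf9 were also its 3 lowest, and control replicate 1 came next. Per1, its relative, had 9.68 to 10.4 on those 3 arrays and 10.5 to 10.9 on the other 9. Fam107a, a stress-induced actin-binding protein, had 7.09 to 7.18 on the 3 and 7.20 to 7.73 on the 9. Tsc22d3, which encodes the glucocorticoid-induced leucine zipper GILZ, had 9.79, 10.15 and 10.00 in TSC22D4 mice, 9.99, 9.89 and 9.97 in LCN13 mice and 9.99, 10.07 and 9.69 in combined mice, against 10.28, 9.91 and 10.04 in controls. Its lowest values were TSC22D4 replicate 10 and combined replicate 16, and control replicate 2 was not among the 3 lowest. The labels give no hour of tissue collection.

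The metallothioneins Mt1 and Mt2 are small zinc-binding proteins induced by metals and by glucocorticoids, and their genes lie 5315 bases apart on chromosome 8. Mt1 had 12.98, 13.00 and 13.03 in TSC22D4 mice, 13.10, 13.11 and 12.94 in LCN13 mice and 12.97, 13.01 and 12.99 in combined mice, against 13.02, 12.92 and 13.14 in controls. All Mt1 values lay within 0.22, near the upper end of the scale, and its differences from control were -0.02, 0.02 and -0.04 for TSC22D4, LCN13 and combined. Mt2 had 11.68, 11.92 and 11.79 in TSC22D4 mice, 11.95, 12.05 and 11.97 in LCN13 mice and 11.79, 11.92 and 11.91 in combined mice, against 11.88, 11.74 and 11.91 in controls. The 3 LCN13 mice had the 3 highest Mt2 values of the 12 arrays. Mt2 was 0.15 higher in LCN13 mice than in controls on the log2 scale without passing the test (SE 0.07, adjusted p = 0.417). TSC22D4 mice differed from LCN13 mice by -0.19 (SE 0.07, adjusted p = 0.186), a comparison in which 2 of 9 members and 25.2% of all genes did not overlap 0 of 9 members and 1.03% of all genes were called, and 1 member and 17.7% of all genes had an unadjusted p under 0.05. The 6 mice with the LCN13 virus differed from the 6 without by 0.11 (SE 0.05, unadjusted p = 0.0409, adjusted p = 0.341, exact permutation p = 0.0519), and 1.08% of all genes and 0 members were called there. An unadjusted p under 0.05 was found for 2 members and 13.7% of all genes, and 0 members and 0.716% of all genes did not overlap. Mt1 and Mt2 correlated at r = 0.50 over the 12 arrays (permutation p = 0.101, adjusted p = 0.493, rho = 0.35 with permutation p = 0.266 and adjusted p = 0.638), and at 0.33 without the 2 arrays farthest from the median of Mt1.

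Errfi1, which encodes MIG6, an inhibitor of the EGF receptor family, had the largest share of its variance between groups, 63.9%. It had 11.48, 11.57 and 11.86 in TSC22D4 mice, 11.61, 11.72 and 11.79 in LCN13 mice and 11.47, 11.51 and 11.58 in combined mice, against 11.97, 11.82 and 11.85 in controls. All LCN13 and combined mice lay below all controls, and TSC22D4 replicate 12 reached into the control range. The combined group averaged 11.52 ± 0.06 and the controls 11.88 ± 0.08 (SD, n = 3 each). That difference was -0.36 (SE 0.09, 95% interval -0.56 to -0.15, 0.780-fold), with an unadjusted limma p of 0.00311 and an adjusted p of 0.120, so it did not pass. An exact permutation test of 3 against 3 gave p = 0.1, the smallest it can give. The TSC22D4 difference was -0.24 (SE 0.09, adjusted p = 0.326) and the LCN13 difference -0.17 (SE 0.09, adjusted p = 0.491). Over the 6 mice with the TSC22D4 virus against the 6 without, Errfi1 differed by -0.21 (SE 0.06, adjusted p = 0.145, exact permutation p = 0.0325). With and without the LCN13 virus, Errfi1 differed by -0.14 (SE 0.06, unadjusted limma p = 0.0496, adjusted p = 0.364, exact permutation p = 0.134).

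Leaving out TSC22D4 replicate 12 moved the Errfi1 adjusted p below the threshold for the combined group against control (0.0272, at the same difference of -0.36) and for the averaged TSC22D4 difference (-0.27, adjusted p = 0.0351). The moderated F test over the 4 groups gave Errfi1 an adjusted p of 0.212 (unadjusted 0.0194, under 0.05 for 1 of 9 members and 16.1% of all genes), with 1.61% of all genes and 0 of 9 members called. Interferon-stimulated genes separated the controls from the other groups on every array. The mean of 9 interferon-stimulated genes, relative to each gene's mean, was -0.65 to -0.39 in TSC22D4 mice, -0.55 to -0.46 in LCN13 mice and -0.80 to -0.74 in combined mice, against 1.65 to 2.00 in controls. Of the 9, 7 were called lower in each comparison with control. The mean of 7 macrophage markers was -0.17 to 0.12 in TSC22D4 mice, which overlapped the controls at 0.04 to 0.48. It was -0.16 to -0.08 in LCN13 mice and -0.30 to -0.08 in combined mice, below all controls. Of the 7, only Fcgr1, an Fc receptor gene that interferon also induces, was called lower in each comparison with control. Adgre1, Cd14, Cd68, Csf1r and Itgam had lower means than controls in all 3 groups without a call. Mrc1 was higher in TSC22D4 mice and lower in the others, also without a call. Over the 6 markers without Fcgr1, the means were -0.11 to 0.12 in TSC22D4 mice, -0.11 to 0.00 in LCN13 mice and -0.22 to -0.01 in combined mice. Controls had -0.10 to 0.26. The mean of 3 red blood cell markers was 0.93 to 1.28 in combined mice, above all controls at -1.56 to 0.43, and lay between -1.27 and 0.70 in the other shRNA mice. The part of these transcripts in the Errfi1 values was not tested.

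**Figure D3:**
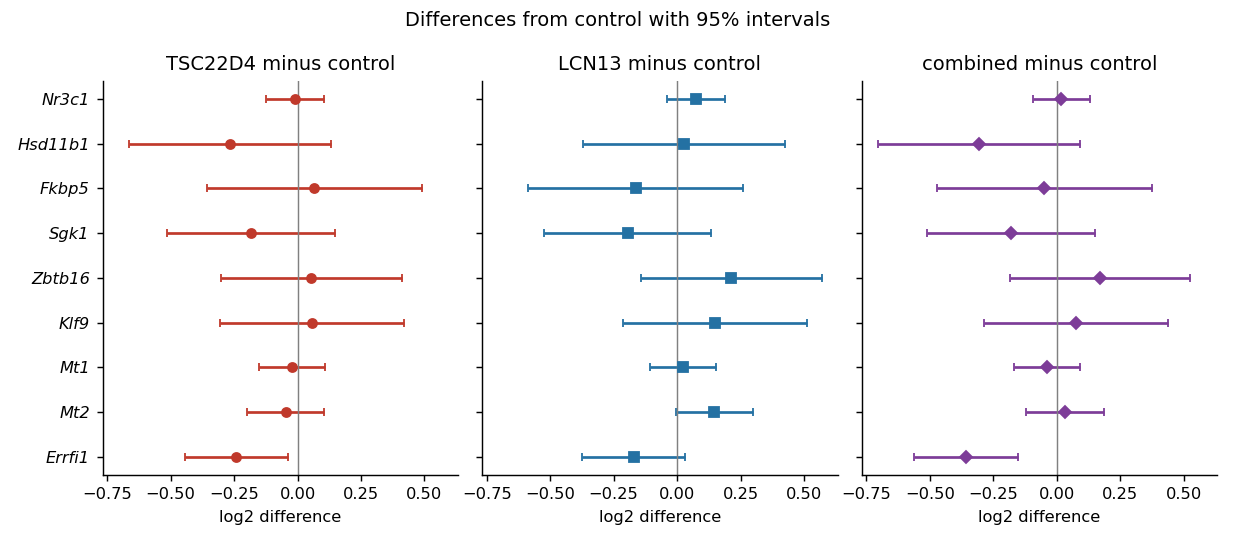
Log2 difference of each member from the control group, with 95% intervals from limma, for TSC22D4, LCN13 and combined mice. Most intervals span 0, and those of Errfi1 lie below 0 for the TSC22D4 and combined groups without passing adjustment over all genes.

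The comparisons between shRNA groups and the interaction gave no call among the members. For combined against TSC22D4 mice, 0 of 23185 genes (0%) passed limma's test, although 6.91% had an unadjusted p under 0.05. Of the 9 members, 0 had such a p, and the groups overlapped for all 9, where 14.5% of all genes did not overlap. Against LCN13 mice, combined mice lay wholly below for 3 of 9 members, Nr3c1, Mt2 and Errfi1, where 16.5% of all genes did not overlap and 0.00863% were called. An unadjusted p under 0.05 was found for 0 members and 10.7% of all genes. The interaction, the TSC22D4 difference in mice with LCN13 shRNA minus that in mice without, lay between -0.13 and 0.20 for the 9 members, and 0 of them and 0.397% of all genes passed, while 0 members and 7.08% of all genes had an unadjusted p under 0.05.

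For the 5 members whose range reached 0.5, the 3 most similar genes were found by Pearson's r over the 12 arrays among 3431 genes with that range. Arrays share their group and animal, so these values describe likeness and carry no p. Hsd11b1 was most like Hspb7, a small heat shock protein (0.93), Mc2r (0.91) and Atn1 (0.91). Fkbp5 was most like Dclre1b (0.89), Stc1 (0.89) and Ttpal (0.88). Sgk1 was most like Rgs7 (0.84), Bcl6b (0.81) and Smoc1 (0.80). Zbtb16 was most like Tns2 (0.95), Klf9 (0.95) and Timp3, an inhibitor of metalloproteinases (0.94). Klf9 was most like Zbtb16, Tspan4 (0.92) and Tns2 (0.92).

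Of 24 other genes known to be induced by glucocorticoids, few passed the test, and those that did moved in both directions. In TSC22D4 mice 1 was called higher and 2 lower than in controls, in LCN13 mice 0 and 1, and in combined mice 0 and 0. Of all genes, 0.293% were called higher and 0.88% lower in TSC22D4 mice, 0.397% and 1.04% in LCN13 mice, and 0.315% and 1.03% in combined mice. Their median differences were -0.07, -0.06 and -0.07 in that order. Pdk4, a kinase that inhibits pyruvate dehydrogenase, had 10.61, 10.52 and 10.54 in TSC22D4 mice, 10.77, 10.63 and 10.39 in LCN13 mice and 11.38, 11.35 and 10.95 in combined mice, against 11.57, 11.19 and 11.38 in controls. Every mouse with 1 gene-directed virus lay below every combined and control mouse. It fell by 0.82 with TSC22D4 shRNA (SE 0.14, adjusted p = 0.0243) and by 0.78 with LCN13 shRNA (SE 0.14, adjusted p = 0.0269), and the combined difference was -0.15.

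Txnip, a thioredoxin-binding protein that curbs glucose uptake, had 12.85, 12.73 and 12.83 in TSC22D4 mice, 13.06, 13.06 and 12.93 in LCN13 mice and 12.94, 13.02 and 12.97 in combined mice, against 13.09, 13.04 and 13.09 in controls. The TSC22D4 mice were the 3 lowest, and Txnip fell there by 0.27 (SE 0.04, adjusted p = 0.0172). The phosphatidate phosphatase gene Lpin1 had 11.75, 11.93 and 11.80 in TSC22D4 mice, 11.53, 11.53 and 11.75 in LCN13 mice and 11.82, 11.72 and 11.66 in combined mice, against 11.52, 11.37 and 11.27 in controls. All 3 shRNA groups lay above the controls, and Lpin1 rose by 0.44 in TSC22D4 mice (SE 0.08, adjusted p = 0.0415) with a difference of 0.35 in combined mice (adjusted p = 0.0974). Of the 12 fits that each left out 1 array, Lpin1 did not pass in 10 (highest adjusted p 0.144), Txnip in 3 (highest 0.0628, without control replicate 1 or 3 or TSC22D4 replicate 11) and Pdk4 in 5 for each comparison (highest 0.0976 for TSC22D4 and 0.0867 for LCN13). The largest differences in combined mice were those of the bile acid transporter family gene Slc10a6 (-0.68, adjusted p = 0.369), the phosphatase Dusp1 (-0.45, adjusted p = 0.112) and Nfkbia, which encodes an inhibitor of NF-kappa B (-0.36, adjusted p = 0.177).

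**Figure D4:**
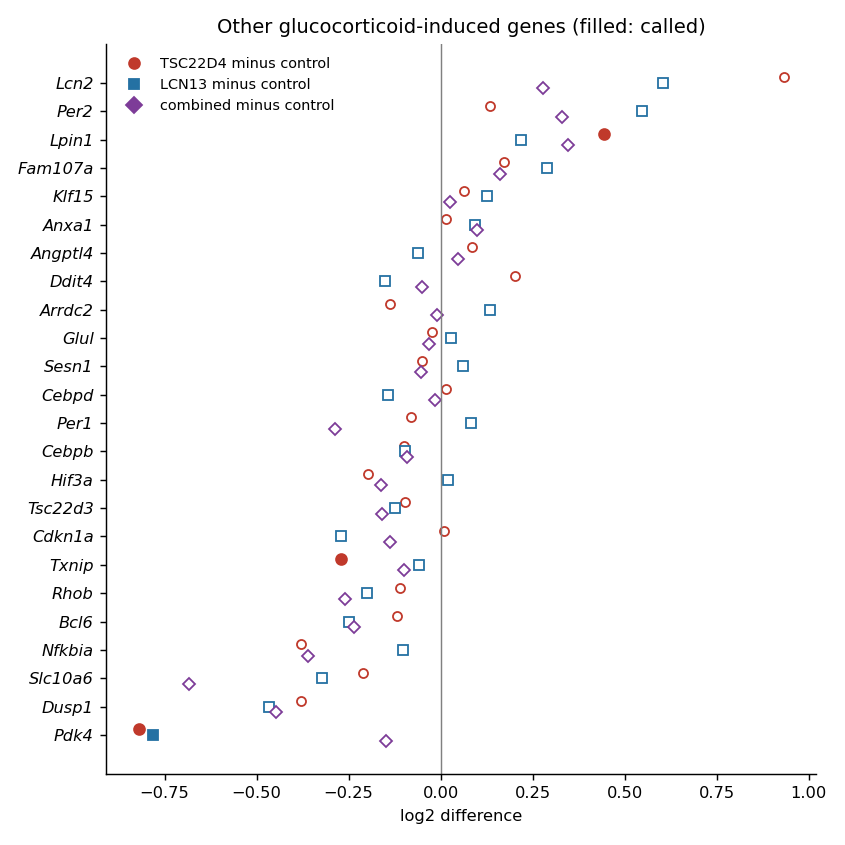
Log2 difference from control (x axis) of the 24 other glucocorticoid-induced genes, for TSC22D4, LCN13 and combined mice, with filled points for calls at an adjusted p under 0.05. Pdk4, Txnip and Lpin1 are filled for TSC22D4, Pdk4 for LCN13, and none for the combined group.

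The machinery around the receptor was measured by 10 of 11 chaperone genes, 9 of 11 coregulator genes and 6 of 8 genes of hormone metabolism and transport, and none was called in any of the 3 comparisons with control. Nrip1, a corepressor known from fat, differed from control by -0.28 in TSC22D4 mice (SE 0.08, adjusted p = 0.193), and Ncoa3, a coactivator, by -0.26 in LCN13 mice (SE 0.07, adjusted p = 0.142). H6pd supplies the cofactor that Hsd11b1's enzyme needs, and its difference in TSC22D4 mice was -0.17 (adjusted p = 0.412). Abcb1b, a pump that exports steroids, had 0.29 in combined mice (adjusted p = 0.152). Of 12 inflammatory genes that glucocorticoids are known to repress, 0 were called, and the chemokine Ccl7 came nearest in combined mice at -0.84 (SE 0.17, adjusted p = 0.0532).

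Genes that work with single members were looked at in the same way. Of 11 metal-responsive genes and zinc transporters beside Mt1 and Mt2, 0 were called in any comparison with control. The largest difference was that of the zinc importer Slc39a8 in LCN13 mice, 0.46 (SE 0.19, adjusted p = 0.357). It came from LCN13 replicates 5 and 6, at 7.59 and 7.70, which also had the highest mesothelial means. Replicate 8, at 6.84, lay below all controls at 6.85 to 7.01. The part of mesothelial cells in the Slc39a8 values was not tested. Of 12 relatives or partners of Sgk1, Klf9 and Zbtb16, 0 were called, and Ndrg2, a substrate of Sgk1's kinase, had the largest difference, -0.48 in TSC22D4 mice (SE 0.16, adjusted p = 0.256). Of 11 measured genes of the EGF receptor family and its ligands, on which MIG6 acts, 1 was called higher in TSC22D4 mice than in controls and 0 in the other groups. That gene was Nrg4, a ligand secreted by fat, with 10.06, 10.11 and 10.02 in TSC22D4 mice against 9.58, 9.48 and 9.38 in controls. It rose by 0.59 (SE 0.11, adjusted p = 0.0409), and it did not pass in 9 of the 12 fits without 1 array (highest adjusted p 0.144). TSC22D4 mice also differed from LCN13 mice by 0.57 for Nrg4 (adjusted p = 0.0497) and by -0.34 for the receptor gene Erbb2 (adjusted p = 0.0485). Each of these calls was lost in 11 of the 12 fits without 1 array.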

How the data were processed

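Array values were analysed from 12 abdominal fat samples, 3 animals in each of 4 groups taken from the labels. The authors deposited 1 log2 value per probe set, made with RMA, according to the submitters' processing notes. Its version, the build and how probes were grouped into probe sets were not given in the sources used here. Sorted columns differed by at most 0.00188, so a change shared by most genes is not visible. Of 25206 probe sets, 23185 had 1 symbol and 2021 none, and all 23185 were tested without a filter. The moderated tests (eBayes after lmFit and contrasts.fit) came from limma 3.58.1 run under R 4.3.3 and fitted 1 mean per group, with 8 residual degrees of freedom. Correlations used 100000 permutations with Benjamini-Hochberg adjustment. The number of arrays limits the precision.

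Named were all members and the 3 nearest genes by correlation. From the lists other than the cell type and interferon lists, genes called in a comparison with control were named. Where none was called, some of the up to 4 with the largest differences were named. Apart from interferon-stimulated genes, called but not named above were Cdkn1a, Dpp4 and Gzmb. Cdkn1a differed by -0.21 between mice with and without the LCN13 virus (limma adjusted p = 0.0489). The fibroblast marker Dpp4 differed by -0.59 between TSC22D4 and LCN13 mice (limma adjusted p = 0.0365). The T and NK cell marker Gzmb was called lower in each comparison with control. Members and lists were chosen with earlier results of these data known. Per1, Per2, Fam107a, Tsc22d3 and the 5 genes highest on an array low in Zbtb16 were named after their values were seen. Alternatives were other fits, array weights, a dim filter, centring and leaving out arrays.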

Additional observations from a re-analysis of the deposited data

Results flagged for a closer look

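The Pdk4 difference between mice with and without the TSC22D4 virus differed with the LCN13 virus by a direct test: the interaction was 1.45 on the log2 scale (SE 0.20, limma adjusted p = 0.0148). Control virus was 4e9 units in controls, 2e9 in TSC22D4 and in LCN13 mice and absent in combined mice, and its part was not tested. Pdk4 averaged 10.56 in TSC22D4 mice, 10.60 in LCN13 mice and 11.23 in combined mice, against 11.38 in controls. Leaving out 1 array ended this call in 3 of 12 fits (TSC22D4 replicate 10 or 11, or combined replicate 14), with an adjusted p up to 0.0535.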

How the results depend on the processing

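Over 18 other settings (12 that each leave out 1 array and 6 others), 1581 of 1584 member values kept their side of the threshold. The 3 exceptions each came from leaving out 1 array: the count of members called was 0 to 1 for LCN13 against control (1, Nr3c1, without control replicate 1), 0 to 1 for the combined group against control and 0 to 1 for the averaged TSC22D4 effect (1, Errfi1, without TSC22D4 replicate 12 in both). Correlated pairs called numbered 1 to 2, with Hsd11b1 and Mt1 added without TSC22D4 replicate 12. Of 90 member results, 36 turned sign in some setting, none of them called. Leaving out arrays in the correlations, and leaving out the 3 arrays low in Klf9 and Zbtb16, were chosen after seeing the data. In the 9-array fit 94, 121 and 125 genes were called for TSC22D4, LCN13 and combined against control, in place of 272, 333 and 311. Of the members, 0 were called. That fit lost the calls of Lpin1, Txnip and Nrg4, and those of Fcgr1 and Gzmb in each comparison with control. The smaller number of arrays is part of that setting. Its Zbtb16 results carry no test, since the arrays were left out for those values. Fits on only the 6 arrays compared with control lost the calls of Fcgr1, Gzmb, Lpin1 and Txnip, and that of Pdk4 for LCN13. They kept those of Nrg4 and Pdk4 for TSC22D4. No paired analysis was possible because the groups share no replicate numbers. All members stayed above the dim filter.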
